A study of Mus musculus with 36 samples.

Results

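The NKG2 receptors, their partner CD94 and the adaptor chains that signal for them were followed as 9 named genes in RNA sequenced from the small intestine of mice with (WT) or without (KO) the long noncoding RNA lnc13. The genes were chosen by name and not by their values: Klrk1, Klrd1, Klrc1, Klrc2, Klrc3, Klre1, Hcst, Tyrobp and Fcer1g. All 9 were found among the 27179 gene IDs of the count files and among the 78275 IDs of the tables for CD8 cells. The series has 36 samples, of which 24 were used. Whole tissue and preparations of lymphocytes from the lamina propria (LPL) and from the epithelium (IEL, intraepithelial lymphocytes) came from gluten-challenged lnc13-WT-DQ8 and lnc13-KO-DQ8 mice, so both genotypes carried DQ8 and both were challenged. Each of these preparations had 2 WT and 2 KO libraries. CD8 IELs of mice labelled lnc13-WT and lnc13-KO, without DQ8 in the label, gave 3 WT and 3 KO libraries named unstimulated, and 3 WT and 3 KO libraries of CD8a+ IELs kept for 48 h in IL-15, a cytokine that activates intraepithelial lymphocytes. Age, strain and sex of the animals are not given in the sources used here, and neither is how the unstimulated cells were kept. The 6 CD8ab libraries and the 6 libraries of RNA antisense purification were not analysed here, and neither was lnc13 itself, so no RNA of the deleted gene checks the labels.

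NKG2D, the product of Klrk1, is an activating receptor for stress-induced ligands related to class I MHC proteins, and it signals through DAP10, the product of Hcst, and in the mouse also through DAP12, the product of Tyrobp. CD94, the product of Klrd1, pairs with NKG2A (Klrc1), which inhibits, or with NKG2C (Klrc2) or NKG2E (Klrc3), and these pairs bind the nonclassical class I protein Qa-1. DAP12 and the Fc receptor gamma chain, the product of Fcer1g, carry signalling motifs for many receptors of natural killer and myeloid cells, and intraepithelial T cells can acquire this set of receptors, in particular under IL-15.

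Of the members, 6 lie side by side within 123.5 kb of chromosome 6, the natural killer gene complex, in the GRCm38.p6 annotation. In order of position they are Klre1 (chr6:129559365-129585828), Klrd1 (chr6:129588092-129598775), Klrk1 (chr6:129610323-129623903), Klrc3 (chr6:129636263-129643511), Klrc2 (chr6:129649602-129660737) and Klrc1 (chr6:129666015-129682852). Tyrobp (chr7:30413782-30417582) and Hcst (chr7:30417712-30419854) are neighbours on chromosome 7 with 129 bases between them, and Fcer1g lies at chr1:171229572-171234349. Klrc2 and Klrc3 are near copies of each other. Their sequences just upstream of the transcription start are shown because they make that closeness visible: from 200 to 41 bases before the start, on the minus strand, 157 of 160 bases were identical (98.1%), and capitals mark the 3 that were not. Klrc2 had more than 1 annotated start, and the start whose stretch best matched that of Klrc3 was taken. The sequences are from RefSeq, build GRCm38.p6, at chr6:129660597-129660756 for Klrc2 and chr6:129643329-129643488 for Klrc3.
Klrc2: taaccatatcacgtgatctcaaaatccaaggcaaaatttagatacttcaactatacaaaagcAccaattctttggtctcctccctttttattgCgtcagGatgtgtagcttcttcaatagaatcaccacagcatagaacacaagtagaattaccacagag
Klrc3: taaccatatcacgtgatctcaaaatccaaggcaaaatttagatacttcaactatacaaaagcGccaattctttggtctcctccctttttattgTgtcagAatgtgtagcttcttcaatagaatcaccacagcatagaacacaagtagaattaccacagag
The same stretch of Klrc1 matched that of Klrc2 in 46.9% and that of Klrc3 in 47.5% of 177 aligned columns. By their coordinates the Klrc3 stretch lies inside its gene's span and the Klrc2 stretch overlaps that of Klrc2. Whether a transcript covers these bases was not checked, and the transcripts were not compared here. Reads of near copies can be split between them, so counts of Klrc2 and Klrc3 are given as uncertain. Windows of 300 bases around annotated starts were at hand for 7 members, 9 windows in all. Members are counted by gene below and all genes by window, so a member with more than 1 window had more chances of a match. The letters TGTGGT, the core that Runx factors bind, stood on either strand in 6 of those 7 genes (Klrk1, Klrc1, Klrc2, Klrc3, Klre1 and Fcer1g) and in 16.8% of 32851 windows of all genes. The STAT core TTCNNNGAA stood in 0 of 7 against 8.30% of windows, and the T-box site GGTGTGA in 0 of 7 against 3.98%. These 3 motifs were chosen with the values in view, and Klrc2 and Klrc3 share their windows almost entirely.

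Reads in genes numbered 10186522 to 13620975 in the 12 tissue, LPL and IEL libraries, 16428511 to 23762128 in unstimulated CD8 cells and 14724754 to 26997371 in the IL-15 set. A count of 3 reads is the limit that a count of 0 allows, for counting error only. Per 1000000 reads in genes it was 0.220 to 0.295 in the first 12 libraries and 0.111 to 0.204 in the CD8 libraries. CPM of the first 12 libraries are reads of a gene per 1000000 after the library totals were scaled by TMM normalisation factors. That limit is therefore on another scale than these CPM. CPM of CD8 libraries are per 1000000 reads recovered, without such factors. Libraries of each group are labelled biological replicates. The p-values measure the spread between these libraries. Several libraries stood apart from their group. WT LPL replicate 1 held summed levels of 77.6 CPM for 8 T cell receptor complex genes and 130 CPM for 12 macrophage genes, against 9.08 and 20.9 in WT LPL replicate 2. All LPL libraries held 4254 to 8689 CPM of 6 exocrine pancreas genes, against at most 8.53 in tissue and IEL. WT replicate 3 of the IL-15 set and the spread of the unstimulated set are described with their results. IEL libraries had the markers of their label: the 8 T cell receptor complex genes summed to 122 to 425 CPM there and to 20.8 to 44.0 CPM in tissue. LPL libraries other than WT replicate 1 held little of them, at 1.55 to 9.08 CPM. Epithelial RNA remained in both preparations. The 6 epithelium genes summed to 7052 to 8415 CPM in IEL, 5437 to 7744 in LPL and 16222 to 26054 in tissue. RNA of the IEL and LPL libraries was thus not from lymphocytes alone.

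The question asked first was where in the intestine the receptors and adaptors were found. Over both genotypes, 4 of the 7 members tested were called higher in IEL preparations than in whole tissue, where 21.9% of 14716 genes were. Against LPL 5 of the 7 were called higher in IEL, where 11.5% of genes were. Klrc2 and Klrc3 were removed by the filter on low counts. CD94, the DAP10 adaptor and the Fc receptor gamma chain passed the test in both comparisons, and so did Klre1, a receptor of the same gene complex. For the Fc receptor gamma chain the call against tissue did not hold under several of the alternatives given below. Klre1 was kept in the tests only through its reads in IEL. In bulk RNA, fewer cells of a type and less RNA per cell cannot be told apart. The panels of CPM by library show all 9 genes.

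**Figure D1:**
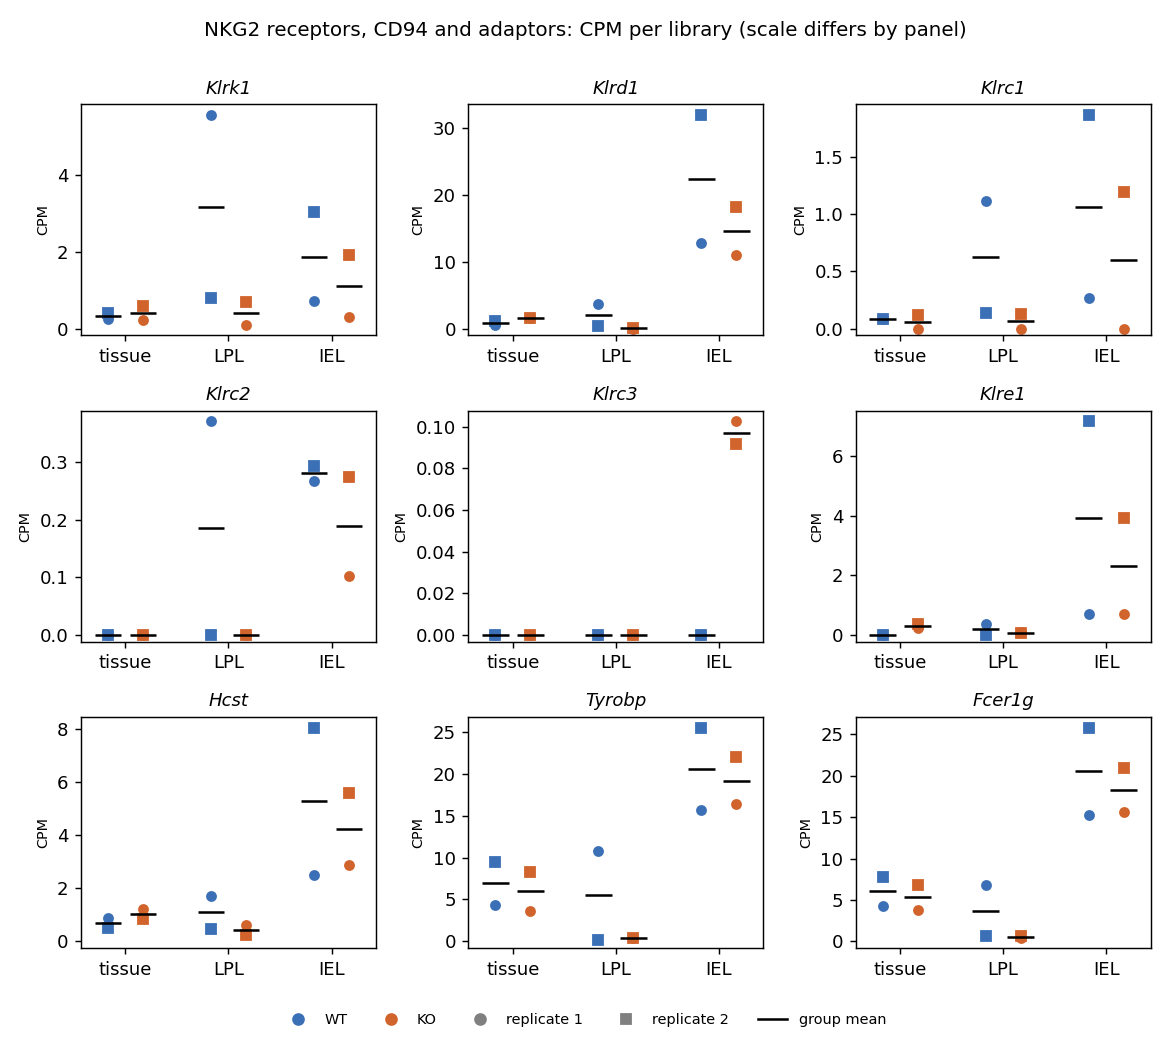
CPM of each member in each library of tissue, LPL and IEL preparations (x axis, WT in blue and KO in orange; circles are replicate 1, squares replicate 2, bars the mean of 2 libraries; the y axis is linear and differs by panel). Klrd1 was 11.1 to 32.0 CPM in the 4 IEL libraries and at most 3.64 CPM in the other 8, and Klrc2 and Klrc3 were at most 0.371 and 0.103 CPM anywhere.

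Klrk1, which encodes NKG2D, was scarce in tissue, at 0.260 and 0.406 CPM in WT and 0.218 and 0.587 in KO. IEL libraries gave 0.714 and 3.04 CPM in WT and 0.308 and 1.92 in KO. LPL libraries gave 5.57 and 0.795 CPM in WT and 0.0860 and 0.703 in KO. The highest library was WT LPL replicate 1, the one rich in T cell and macrophage RNA, and the ranges of all 3 preparations overlapped. Mean Klrk1 was 0.368 ± 0.167 CPM in tissue, 1.79 ± 2.54 in LPL and 1.5 ± 1.24 in IEL (SD, n = 4 each). The mean put LPL above IEL, with WT LPL replicate 1 in it, while the fitted difference had the opposite sign. No neighbours differed beyond their spread: the log2 difference was 1.96 (SE 0.95) for IEL against tissue and 0.36 (SE 0.86) for IEL against LPL, with edgeR adjusted p = 0.122 and 0.797.

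Klrd1, which encodes CD94, had the clearest preference for IEL. WT IEL libraries gave 12.8 and 32.0 CPM and KO IEL libraries 11.1 and 18.1 CPM. Tissue held 0.607 and 1.14 CPM in WT and 1.64 and 1.53 in KO, and LPL 3.64 and 0.397 in WT and 0 and 0.0639 in KO. All 4 IEL libraries lay above all 8 others. The log2 difference was 3.93 (SE 0.66) for IEL against tissue and 5.90 (SE 0.80) for IEL against LPL, with edgeR quasi-likelihood adjusted p = 0.00188 and 0.00171. LPL against tissue did not pass (-1.97, SE 0.87, adjusted p = 0.0815), and without WT LPL replicate 1 it did (-3.12).

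The NKG2 chains that pair with CD94 were far harder to detect. Klrc1, which encodes the inhibitory NKG2A, had 3 and 19 reads in WT IEL, 0 and 13 in KO IEL, 15 and 2 in WT LPL, 0 and 2 in KO LPL, and 0 or 1 in each tissue library. Its IEL libraries were thus split, with replicate 2 of each genotype well above replicate 1. The difference was 3.35 (SE 1.41) for IEL against tissue and 1.87 (SE 1.21) for IEL against LPL, and neither passed (edgeR adjusted p = 0.0811 and 0.305), while the first did without KO IEL replicate 1 (3.88, adjusted p = 0.0484). Klrc2 had 3, 3, 1 and 3 reads in the IEL libraries, 5 in WT LPL replicate 1 and 0 in the other 7. Klrc3 had 1 read in each KO IEL library and 0 in the other 10. Both stayed at or near the limit and were removed by the filter on low counts, which 7 of the 9 members passed.

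Klre1 encodes a lectin-like receptor that pairs with other chains of the complex. It had 8 and 73 reads in WT IEL (0.714 and 7.16 CPM) and 7 and 43 in KO IEL (0.718 and 3.94 CPM). Tissue had 0 reads in both WT libraries and 2 and 3 in KO, and LPL had 5, 0, 1 and 1. Klre1 thus passed the filter on low counts through the IEL libraries alone, the group in which it was then called higher. All 4 IEL libraries lay above all others. The fitted differences were 5.77 (SE 1.38) against tissue and 4.60 (SE 1.14) against LPL (edgeR adjusted p = 0.0112 and 0.0269), and their size depends on how near 0 the other preparations were. The call against LPL was lost with the replicate block (adjusted p = 0.0548) and without WT LPL replicate 2, either KO LPL library, or replicate 2 of either IEL group (adjusted p = 0.0532 to 0.115).

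Among the adaptors, Hcst, which encodes DAP10, was 2.50 and 8.04 CPM in IEL of WT and 2.87 and 5.59 in IEL of KO mice. It was 0.868 and 0.487 CPM in WT tissue, 1.20 and 0.822 in KO tissue, 1.71 and 0.464 in WT LPL and 0.602 and 0.255 in KO LPL. Every IEL library was above every other library. The difference was 2.50 (SE 0.60) against tissue and 2.81 (SE 0.60) against LPL, with edgeR adjusted p = 0.00912 and 0.0127.

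Tyrobp, which encodes DAP12, was 15.7 and 25.5 CPM in IEL of WT and 16.4 and 22 in IEL of KO mice. Tissue gave 4.34 and 9.51 in WT and 3.60 and 8.33 in KO. LPL gave 10.8 and 0.199 in WT and 0.344 and 0.447 in KO. The 4 IEL libraries were the highest, and the WT LPL libraries lay far apart, with replicate 1 above all tissue libraries. Against LPL the difference was 3.74 (SE 0.90, edgeR adjusted p = 0.0207). Against tissue it did not pass (1.62, SE 0.79, adjusted p = 0.124), but it did without WT LPL replicate 1 or 2 (adjusted p = 0.00690 and 0.00760). LPL was lower than tissue in the same way, not past the threshold with all libraries (-2.12, adjusted p = 0.0681) and past it without either of those 2 (-4.48 and -1.61, adjusted p = 0.000543 and 0.0186).

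Fcer1g followed the same pattern, with 15.3 and 25.8 CPM in IEL of WT and 15.6 and 21.0 in IEL of KO mice, and tissue values of 4.25 and 7.80 in WT and 3.82 and 6.81 in KO. LPL held 6.76 and 0.596 CPM in WT and 0.344 and 0.703 in KO. It was the only member called in all 3 comparisons: higher in IEL than in tissue (1.77, SE 0.60, edgeR adjusted p = 0.0388) and than in LPL (3.79, SE 0.67, adjusted p = 0.00567), and lower in LPL than in tissue (-2.02, SE 0.65, adjusted p = 0.0263). The call of IEL against tissue did not survive the replicate block (adjusted p = 0.0532) or the loss of any single tissue or IEL library, or of KO LPL replicate 2. The call of LPL against tissue was lost without WT or KO tissue replicate 2 or either KO LPL library.

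In counts, 4 of 7 tested members were higher in IEL than in tissue, where 21.9% of 14716 genes were, and 5 of 7 were higher in IEL than in LPL, where 11.5% of genes were. Klre1 is in both of these counts and entered the tests only through its IEL reads. In LPL 1 of 7 was lower than in tissue, where 28.0% of genes were. The medians of the members were 2.50, 3.74 and -0.30 on the log2 scale for these comparisons, against 0.05, -0.03 and 0.03 over all genes. Only Klrd1 and Fcer1g were called higher in IEL than in LPL under every alternative. The number called there fell to 3 without KO LPL replicate 1 and to 2 without KO LPL replicate 2, WT IEL replicate 2 or KO IEL replicate 2.

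**Figure D2:**
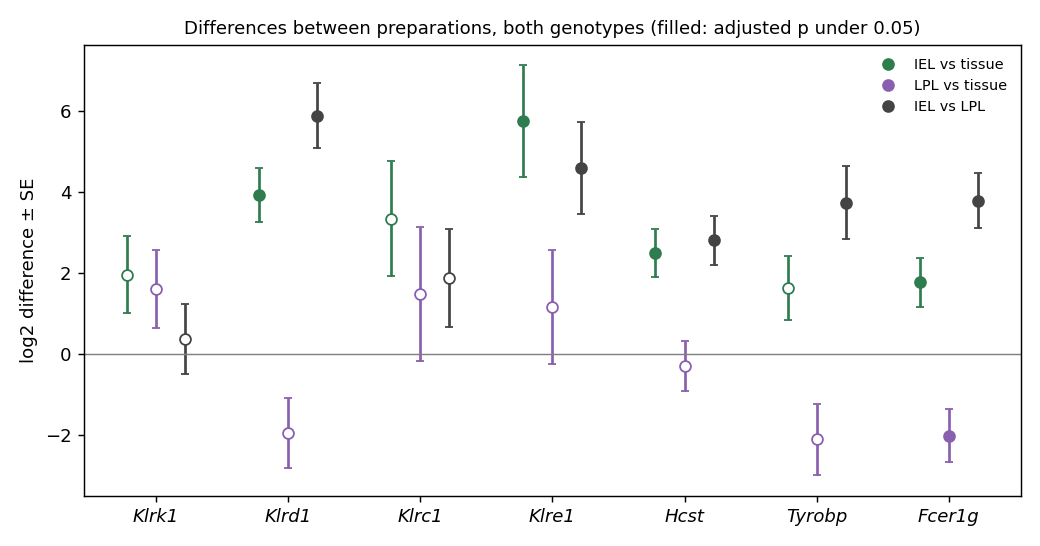
Log2 differences between preparations over both genotypes for the 7 members that passed the filter (y axis; points are edgeR estimates, bars 1 SE; green is IEL against tissue, purple LPL against tissue, black IEL against LPL). Filled points have an adjusted p under 0.05; those of Klrd1 lie at 3.93 and 5.90, and Klrk1 has none.

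Marker genes of other cells that use these chains moved between the preparations as well. The summed level of 6 natural killer and group 1 innate lymphoid genes was 6.69 to 20.5 CPM in IEL and 1.86 to 3.05 in tissue. Eomes was at 0 in both WT tissue libraries. The genes of this list did not move alike. Prf1 alone was 1.61 to 11.1 CPM in IEL and 0.235 to 1.42 in tissue, and Klrg1 was 0 to 0.458 and 0.109 to 0.352. Genes of mast cells, 8 in all, summed to 59.9 to 162 CPM in IEL and 3.01 to 14.6 in tissue, with Cma1 at 0 in all IEL libraries. Mcpt1 and Mcpt2 held most of that sum, at 38.8 to 104 and 16.7 to 51.6 CPM in IEL. Cpa3 was higher in IEL too, at 1.16 to 3.28 CPM against 0.162 to 0.939. The ranges overlapped for Tpsb2 (0.0892 to 0.458 in IEL, 0 to 0.822 in tissue) and Mcpt4 (0.824 to 1.25 and 0 to 0.939). Mast cells carry the Fc receptor gamma chain. Macrophages carry it together with DAP12, and their 12 genes went the other way, at 47.1 to 107 CPM in IEL and 145 to 277 in tissue. Csf1r, the macrophage growth factor receptor, was 0.550 to 2.26 CPM in IEL and 16.6 to 29.7 in tissue (log2 difference -4.08, SE 0.86, edgeR adjusted p = 0.00528). The part of these cells in the levels of Tyrobp and Fcer1g was not tested.

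The members were also set against T cell RNA. Each member was divided by the mean CPM of Cd3d, Cd3e and Cd3g, with 0.1 CPM added to both, and IEL was compared with tissue by an exact two-sided permutation test of the log2 ratio (4 against 4 libraries, smallest possible p = 0.0286). Hcst was 9.70% and 9.11% of CD3 in WT IEL and 9.23% and 9.13% in KO IEL, a nearly constant share. In tissue it was 16.0% and 14.6% in WT and 12.7% and 22.3% in KO, so all tissue libraries lay above all IEL libraries (exact permutation p = 0.0286, or 0.0857 against Cd3e alone). Klrc3 had the same exact permutation p, but at 0 or 1 read in each library its ratio is set by the 0.1 CPM added. Klrd1 was 29.3% to 48.0% of CD3 in IEL and 11.7% to 39.4% in tissue, and the groups overlapped (exact permutation p = 0.200). Tyrobp was 28.7% to 59.0% in IEL and 36.2% to 239% in tissue, and Fcer1g 29.0% to 57.4% and 38.4% to 196%. The ratio was computed for 9 members, and these p-values are not adjusted.

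Within the IEL preparations the members did not keep constant proportions to each other. For the 6 members with at least 3 reads in every IEL library (Klrc1, Klrc2 and Klrc3 had fewer), replicate 2 was above replicate 1 in both genotypes, but by unequal factors. Klre1 was 10.03 times higher in WT and 5.49 times in KO, and Klrk1 4.26 and 6.26 times. Klrd1 was 2.51 and 1.64 times higher, Hcst 3.22 and 1.95 times, and Cd3e, which belongs to the T cell receptor complex, 2.90 and 1.81 times. Of these 6, Tyrobp and Fcer1g varied least, by 1.62 and 1.69 times in WT and 1.34 and 1.35 times in KO. The largest ratios among the genes plotted were those of Cd8b1 and Cd5. Cd8b1, the beta chain of the CD8 coreceptor, differed 17.1 and 11.4 times and Cd5 16.1 and 9.61 times, while Trdc, the constant chain of the gamma delta T cell receptor, differed 2.03 and 1.18 times. With 1 library for each replicate and genotype these ratios have no test, and their cause was not tested.

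**Figure D3:**
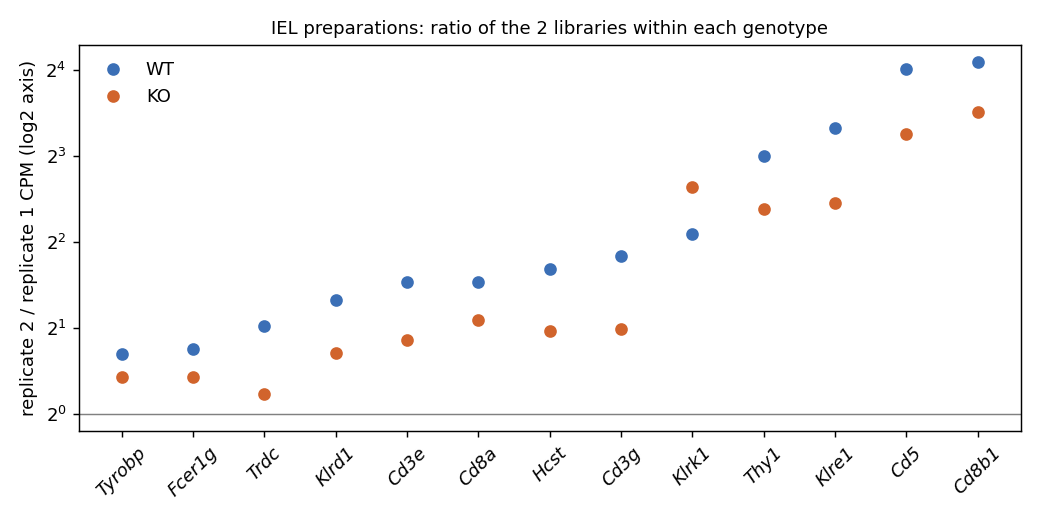
Ratio of replicate 2 to replicate 1 CPM in IEL preparations (log2 y axis; WT in blue, KO in orange) for 6 members and 7 T cell genes, ordered by the WT ratio. Tyrobp and Fcer1g sit at 1.34 to 1.69, near Trdc, and Klre1 at 5.49 and 10.03, between Thy1 and Cd5.

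Genes whose pattern over the 12 libraries was most like that of a member were found by the root mean square difference of centred log2(CPM + 0.5) among 13153 genes. For Tyrobp the nearest was Fcer1g (0.305 log2 units), then Asb2 (0.394), Stab1 (0.442), Syne1 (0.539) and Rcsd1 (0.551). For Klrd1 they were Itgae (0.362), which encodes the integrin chain that retains lymphocytes in the epithelium, then Fasl (0.380), Cd200r1 (0.395), Apol7e (0.425) and Prkch (0.438). For Klrk1 they were Tnfrsf4 (0.428), Rora (0.433), Tcp11l2 (0.449), Tnfaip3 (0.464) and Cd2 (0.466). These are descriptions over 12 libraries that share preparation and depth.

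Knockout and wild type were then compared within each preparation, to ask whether the receptors and adaptors differed without lnc13. None of the 7 tested members passed in tissue, LPL or IEL by edgeR, and the share called among 14716 genes was 0.0% in each. At an unadjusted p under 0.05 there were 0 members in tissue, 4 in LPL and 0 in IEL, against 3.15%, 3.04% and 0.815% of all genes (463, 448 and 120). DESeq2 called 6, 1 and 1 genes in all and 0 of the members.

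In tissue the members' median log2 difference was 0.26, with 4 positive and 3 negative, and that of all genes was -0.01. Klrd1 was higher in both KO libraries than in both WT libraries (0.85, SE 0.94, edgeR adjusted p = 1). Klre1 was at 0 in WT against 2 and 3 reads in KO, all at or under the limit of detection, so no fold is given. These were the 2 members whose groups did not overlap with KO above, as for 13.2% of genes.

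In LPL all 7 tested members had negative differences, with a median of -2.96 against 0.01 over all genes. Klrd1 had 49 and 6 reads in WT and 0 and 1 in KO. The ratio of its pooled reads, each over the pooled reads in genes, was 57.5 (95% exact interval 9.91 to 2313). That interval covers counting error only and not the spread between the WT libraries, and both KO libraries were under the limit of 3 reads. The fitted difference was -5.45 (SE 1.36, unadjusted p = 0.00294, edgeR adjusted p = 1). Fcer1g had 91 and 9 reads in WT and 4 and 11 in KO (-2.78, SE 0.99, adjusted p = 1). In each of these genes WT replicate 1 held most of the reads. Klrk1 had 75 and 12 against 1 and 11 reads, Tyrobp 146 and 3 against 4 and 7, Hcst 23 and 7 against 7 and 4, and Klrc1 15 and 2 against 0 and 2. For Tyrobp and Fcer1g the second WT library lay within or next to the KO range, and for Klrd1 it stayed above it. Without WT replicate 1 the difference was -0.14 for Fcer1g (adjusted p = 1) and -3.11 for Klrd1 (unadjusted p = 0.0330, adjusted p = 1). By CPM the groups did not overlap for Klrk1, Klrd1 and Klrc1, all with KO below, as for 8.17% of genes. For Klrk1 the nearest libraries had 12 and 11 reads, and for Klrc1 they had 2 reads each, a tie that only the scaling to depth separated. Beside these values, the T cell receptor complex genes summed to 9.08 and 77.6 CPM in WT LPL and 1.55 to 8.37 in KO LPL, and macrophage genes to 20.9 and 130 in WT and 19.5 to 22 in KO, with Cd163 at 0 in KO. Their part in the members' differences was not tested.

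In IEL all 7 tested members also had negative differences, but small ones, with a median of -0.63 against -0.02 over all genes. Klrd1 differed by -0.63 (SE 0.79) and Klrk1 by -0.74 (SE 1.22), each with edgeR adjusted p = 1. Without WT replicate 2, the library with the highest level, the sign turned to 0.24 for Klrd1 and 0.70 for Klrk1. Without KO replicate 1 the difference of Klrk1 was 0.05. Replicate 2 was the higher one in both genotypes, so these sets are uneven, and KO lay below WT of the same number for both genes. With the replicate number as a block the differences were -0.61 and -0.78 (adjusted p = 1 for each). For 0 of 7 members did the groups separate in either direction, against 27.3% of all genes. The effect of the knockout was also compared between preparations, and 0 of 7 members passed in any of the 3 comparisons (0.0% of genes). The smallest unadjusted p was that of Klrd1 for LPL against tissue, at 0.00464 (edgeR adjusted p = 1.00).

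In CD8 IELs the values are normalised counts, each library's reads divided by a size factor, and the unstimulated and IL-15 tables were normalised apart. CD94 and DAP10 were found in all 12 libraries. In the unstimulated set, however, many genes were nearly absent in some libraries and abundant in others. Of 9193 genes with a mean of at least 100, 67.9% had 1 library under 20 and another at 500 or more, against 0.331% of 9357 genes in the IL-15 set. The number of genes with at least 10 reads was 8366 to 12808 per unstimulated library and 13560 to 14737 per IL-15 library.

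Klrk1 showed that pattern without stimulation, at 1754, 19.5 and 9.01 in WT and 10.2, 1846 and 13.3 in KO. So did Klrc1, at 1568, 1.56 and 1364 in WT and 7.12, 1649 and 3.99 in KO, and Tyrobp, at 351, 1280 and 0 in WT and 751, 1.86 and 2.66 in KO. Each of the 3 genes was high in at least 1 library of either genotype and near 0 in another, and no library was high for all of them except WT replicate 1. Klre1 was 875, 424 and 140 in WT and 2.03, 744 and 447 in KO. Klrd1 was steadier, at 4014, 5968 and 2297 in WT and 1944, 3943 and 3115 in KO, and so were Hcst, between 1481 and 3357, and Fcer1g, between 538 and 2058. Klrc2 was at most 7.12 and Klrc3 at most 1.74. Trdc was 372, 992 and 338 in WT and 2.03, 881 and 915 in KO, and the low KO library is the one low in Klre1. None of 7 tested members passed by limma on log2(value + 1), where 0.0% of 17208 genes did and 575 had an unadjusted p under 0.05. Klre1 differed by -1.90 (SE 2.59) and Klrd1 by -0.40 (SE 0.62), with limma adjusted p = 0.908 and 0.922. Without KO replicate 1 the difference of Klre1 was 0.62. No member had groups that did not overlap, against 8.52% of genes.

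**Figure D4:**
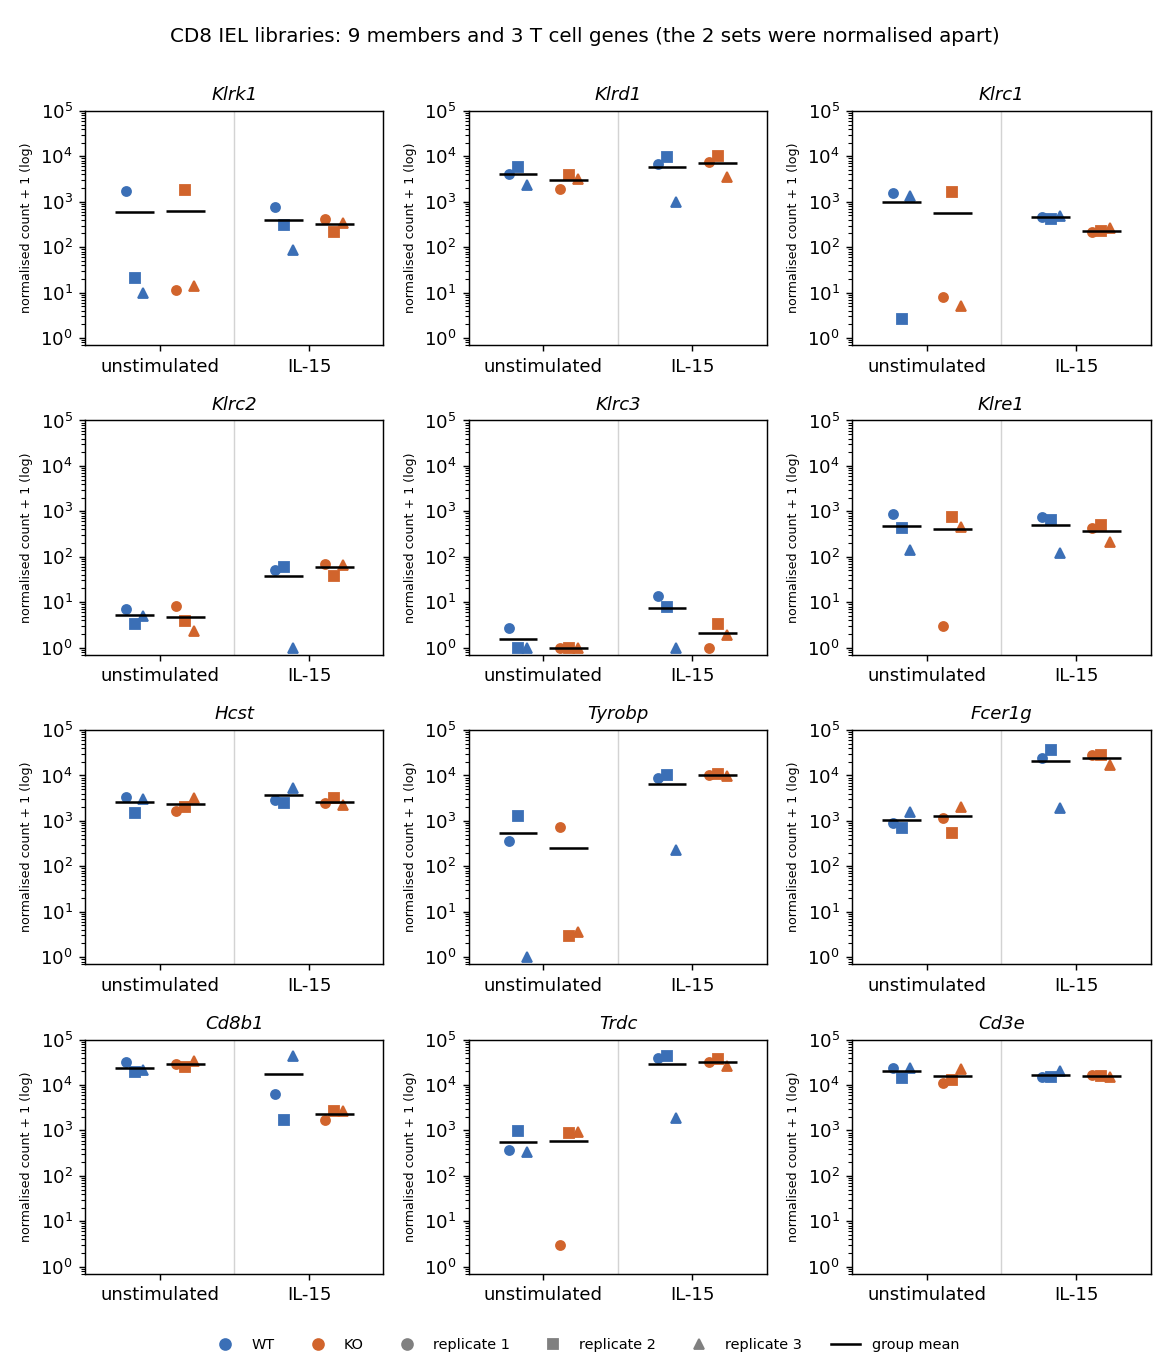
Normalised counts + 1 (log10 y axis) of the 9 members and of Cd8b1, Trdc and Cd3e in CD8 IEL libraries (WT in blue, KO in orange; circle, square and triangle are replicates 1, 2 and 3; bars are group means). The unstimulated and IL-15 tables were normalised apart and are divided by a grey line; Klrk1, Klrc1 and Tyrobp split between under 20 and over 350 in the unstimulated set, and WT replicate 3 (triangle) is lowest for Tyrobp and Fcer1g and highest for Cd8b1 in the IL-15 set.

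In the IL-15 set the adaptor genes were abundant and even in 5 of 6 libraries. Tyrobp was 8708, 10169 and 232 in WT and 10381, 10725 and 9537 in KO. Fcer1g was 24022, 35661 and 1963 in WT and 28742, 28273 and 17345 in KO. Both were low in WT replicate 3 alone. In CPM, from the reads recovered, Fcer1g was 27.0 to 94.1 in the unstimulated libraries and 110 to 1884 in the IL-15 set, and Tyrobp 0 to 85.3 and 13 to 626. Those ranges are set side by side without a test, since the sets were normalised separately. Among T cell markers, Trdc and Cd8b1 differed between the sets too, in opposite directions in 5 of the 6 IL-15 libraries. Trdc was 0.103 to 66.1 CPM unstimulated, 106 in WT replicate 3 of the IL-15 set and 1615 to 2311 in the other 5 of that set. Cd8b1 was 1136 to 1545 CPM unstimulated, 2425 in WT replicate 3 and 88.8 to 345 in those 5. The part of such a difference in cells was not tested. Of 12 macrophage genes, 6 were at 0 in all 3 KO libraries, among them Csf1r, C1qa and Fcgr1, and the list summed to 158 to 280 in KO and 318 to 492 in WT. Cd68, a lysosomal protein gene on that list, held most of these sums, at 294, 441 and 492 in WT and 263, 150 and 195 in KO. Mast cell genes summed to at most 39.1, with 7 of 8 at 0 in KO.

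Klrd1 was 6831, 9714 and 999 in WT and 7678, 10029 and 3484 in KO, again lowest in WT replicate 3. Klrk1 was 773, 310 and 85.6 in WT and 412, 218 and 336 in KO, and Klre1 766, 630 and 118 in WT and 422, 497 and 209 in KO. Hcst went the other way, with its highest value in that library: 2913, 2526 and 5426 in WT and 2529, 3147 and 2267 in KO. Klrc2 was 51.1, 56.9 and 0 in WT and 67.2, 37.2 and 66.4 in KO, and Klrc3 was at most 12.5. The median of the other 5 libraries was 43.8 times that of WT replicate 3 for Tyrobp, 14.4 times for Fcer1g, 7.69 times for Klrd1, 4.21 times for Klre1 and 3.93 times for Klrk1. For Trdc it was 20.03 times. Cd8b1 was 43429 in that library and 1681 to 6394 in the others, and Thy1 and Cd5 were also highest there. Whether its cells were of another kind was not tested.

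Klrc1 was 1 of 8 tested members whose genotypes did not overlap after IL-15, a share near that of all genes, and it did not pass the test. It was 453, 424 and 484 in WT and 211, 226 and 259 in KO, with means of 454 ± 29.7 and 232 ± 24.7 (SD, n = 3 each). Every KO library lay below every WT library, WT replicate 3 included, as for 9.16% of 16371 genes. The log2 difference was -0.97 (SE 0.18, unadjusted p = 0.00101), and the limma adjusted p of 0.349 did not pass. Over the alternatives its difference ranged from -1.05 to -0.90 and its adjusted p from 0.0918, without WT replicate 3, to 0.865. In the unstimulated set Klrc1 could not be read in the same way, since both genotypes held libraries near 0. Tyrobp differed by 1.89 (SE 1.32, adjusted p = 0.579), and by 0.12 without WT replicate 3. None of 8 tested members passed, where 0.0% of genes did and 1841 had an unadjusted p under 0.05. Without WT replicate 3, 1 gene of all was called.

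The ligands of these receptors and the enzymes downstream of their adaptors were read from lists. Of 6 ligand genes, 3 could be tested in tissue, LPL and IEL. H2-T23, which encodes Qa-1, the ligand of CD94 pairs, was 222 to 389 CPM in tissue, 34.7 to 80.1 in LPL and 80.8 to 176.1 in IEL. It was lower in IEL than in tissue (-1.36, SE 0.29, edgeR adjusted p = 0.00574), lower in LPL than in tissue (-2.49, SE 0.30, adjusted p = 0.000212) and higher in IEL than in LPL (1.12, SE 0.29, adjusted p = 0.0269). Ulbp1, which encodes a ligand of NKG2D, was higher in IEL than in tissue (1.94, SE 0.69, adjusted p = 0.0459), at 1.08 to 1.37 CPM against 0 to 0.587. Like Klre1, Ulbp1 passed the filter on low counts through the IEL libraries alone, with 11 to 15 reads there and 0 to 5 in tissue. That is the group in which it was then called higher. None of the ligands passed between genotypes in any preparation or CD8 set. H60b, another NKG2D ligand, was 15.6 to 25.0 in WT and 32.7 to 72.1 in KO after IL-15 (1.21, SE 0.47, limma adjusted p = 0.425).

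Of 26 kinases, scaffolds and phosphatases downstream of the adaptors, 11 had higher and 5 lower levels in IEL than in tissue, with a median of 1.46, where 21.9% of genes were higher and 23.1% lower. Zap70, a kinase recruited to phosphorylated receptor chains, was 17.2 to 54.1 CPM in IEL and 3.12 to 3.27 in tissue (3.33, SE 0.78, edgeR adjusted p = 0.00836). Its relative Syk was lower in IEL (-0.92, SE 0.24, adjusted p = 0.0134), at 24.5 to 31.0 CPM against 40.5 to 63.3. Rac1, a small GTPase that epithelium also expresses, was lower too (-1.71, SE 0.17, adjusted p = 0.000265). Against LPL 10 were higher in IEL and 0 lower (median 1.63), where 11.5% and 7.92% of genes were, and in LPL against tissue 0 were higher and 6 lower (median -0.27), where 27.3% and 28.0% of genes were. In the KO comparisons 0 of 26 passed in tissue, LPL or IEL. In LPL their median was -1.22, against 0.01 over all genes. There 8 of the 26 had an unadjusted p under 0.05, where 3.04% of genes did. Zap70 was 13.6 and 1.32 CPM in WT and 0.0860 and 1.47 in KO, a range set by WT replicate 1 as for the members. In CD8 cells 0 of 25 passed in the unstimulated set and 0 of 26 after IL-15, where the ubiquitin ligase gene Cbl differed by 0.96 (SE 0.18) and the scaffold gene Lcp2 by -0.47 (SE 0.13), with limma adjusted p = 0.349 and 0.408.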

How the data were processed

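RNA was poly(A)-selected, with a NEBNext Ultra II RNA kit for tissue, LPL and IEL and a NEBNext Single Cell/Low Input kit for CD8 cells, per the labels' protocols. The authors deposited raw read counts per Entrez gene for the first 12 libraries, and HISAT2 is the aligner per the file headers. In the submitters' processing notes stand TopHat, featureCounts, DESeq and mm10. For CD8 cells the deposited values are a normalised signal, read counts divided by a size factor. That was checked on the values: times 1 factor per column they were whole within 0.01, and the recovered totals served as depth only. For these the submitters' processing notes list STAR, DESeq2 and mm39 as well, with no role. A symbol was matched to 25275 of 27179 Entrez IDs, which held 99.2% of reads, and to 51486 of 78275 Ensembl IDs, which held 98.6% and 99.4%.

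Groups came from titles. The 12 libraries were fitted as 6 groups with edgeR 4.0.16 quasi-likelihood, TMM factors and filterByExpr, and CD8 values with limma 3.58.1 on log2(value + 1) for means of at least 5 (R 4.3.3, Python 3.11.15), with Benjamini-Hochberg adjustment over all genes at 0.05. SE is the difference over the root of F for edgeR, and the moderated standard error of limma for CD8 values. Both fits were tested on simulated data. Alternatives were DESeq2 1.42.0, upper-quartile factors, other filters and pseudocounts, each preparation alone, a replicate block and each library left out. Where that leaves 1 library in a group, it is assumed to vary like the others.

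Members, lists and tests were chosen with earlier results of these data known. All members are named, with tests in KO comparisons for those past the threshold or the 2 smallest p, plus up to 3 genes per list and 5 likeness genes for Klrk1, Klrd1 and Tyrobp. Marker lists without a value in the results (CD8 coreceptor, conventional and intraepithelial T cells, dendritic cells, neutrophils and eosinophils, B and plasma cells) served as checks only. Lengths of the genes' exons were not used here, so levels are compared within a gene and not between genes.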

Additional observations from a re-analysis of the deposited data

How the results depend on the processing

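No member was called between genotypes under any alternative, in any preparation or CD8 set. Of the results for single genes, 519 kept direction and side of the threshold, 12 gained a call, 27 lost one and 12 changed sign. Changes of sign came from leaving out 1 library, apart from Klre1 relative to CD3, which was -0.87 with 0.5 CPM added in place of 0.1. With 1 library left out the difference between genotypes in IEL ranged from -1.15 to 0.24 for Klrd1 and from -2.62 to 0.70 for Klrk1, and that of Klre1 in unstimulated CD8 cells from -3.34 to 0.62. LPL against tissue ranged from -0.91 to 1.66 for Klre1 and from -0.91 to 0.038 for Hcst. IEL against LPL ranged from -1.07 to 3.27 for Klrc1 and from -0.58 to 1.37 for Klrk1. The members called between LPL and tissue numbered 1, where 8134 of 14716 genes were called. With DESeq2 they numbered 3, where 8272 of 14716 genes were. Without a filter on low counts they also numbered 3, where 8073 of 22785 genes were. The number changed as well with 1 library left out. Those called between IEL and LPL numbered 2 to 5 with 1 library left out, where the genes called in all fell from 2856 to as few as 1267.

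Upper-quartile factors moved the median of all genes to 0.16 for LPL against tissue and to -0.11 for IEL against LPL, and no member changed sign under them. With the replicate block, 3 members were called between IEL and tissue in place of 4, and 4 between IEL and LPL in place of 5, where Klre1 was lost (4.15, edgeR adjusted p = 0.0548). Of all 14716 genes, 6558 and 2879 were called in these comparisons under the block. The correlation of same-numbered WT and KO libraries was 0.669 for tissue, 0.355 for LPL and 0.533 for IEL, but with 2 per group these values cannot show pairing. In CD8 cells the correlations lay between -0.06 and 0.00, so the numbers were taken as names. With 2 or 3 libraries per group, and with Klrc1, Klrc2 and Klrc3 near the detection limit outside CD8 cells, a missed threshold does not show that genotypes were alike.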
